A study of Homo sapiens with 6 samples.

Results

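Fatty acid synthesis, storage and oxidation are covered here by 52 genes of the 61860 listed in the deposited expression table, chosen by gene symbol. They fall into 28 genes of synthesis and storage, 17 genes of oxidation, and 7 genes of activation and release (acyl-CoA ligases and lipases) that feed either direction. Synthesis and storage were set against oxidation, in IR+Oligonol cells against IR control cells. The 3 IR+Oligonol libraries came from SH-SY5Y cells given Oligonol, a low-molecular-weight polyphenol product made from lychee fruit extract, at 500 ng/mL for 24 h. The 3 IR control libraries came from the same line without Oligonol. All 6 were made from cells that had been differentiated with all-trans retinoic acid and then made insulin resistant (IR) with insulin at 100 nM and D-glucose at 30 mM for 24 h. SH-SY5Y is a human neuroblastoma line with neuron-like features, so results concern this 1 tumour line, and no insulin-sensitive cells are among the samples analysed here. In these bulk RNA libraries, fewer cells of a type and less RNA per cell cannot be told apart.

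As background, cytosolic acetyl-CoA is carboxylated to malonyl-CoA and built into palmitate by fatty acid synthase, after which elongases and desaturases shape the chain. Coenzyme A ligases activate fatty acids, and acyltransferases join them to glycerol for membranes or for triglyceride in lipid droplets. For oxidation, the carnitine shuttle carries acyl groups into mitochondria, where malonyl-CoA from the synthetic route restrains the entry step, and beta-oxidation passes electrons through the electron transfer flavoprotein (ETF) to the respiratory chain. Neurons are known to oxidise little fatty acid compared with astrocytes, while they make and remodel lipid for membranes.

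Estimated counts summed to between 19457923 and 20912945 in the Oligonol libraries and between 22738203 and 32209583 in the controls. Protein-coding genes held 10.0 to 12.3% of them with Oligonol and 6.24 to 6.83% in controls, and the TMM scaling factors were 1.23 to 1.94 with Oligonol and 0.532 to 0.739 in controls. This share moved with the groups, and its part in the results was not tested. Weighted by protein-coding counts, the median GC content was 51.2%, 54.1% and 51.6% in Oligonol libraries 1, 2 and 3, against 56.2%, 56.3% and 56.0% in controls 1, 2 and 3, so Oligonol library 2 lay between the others of its group and the controls. Levels are given as CPM (a gene's estimated count as a share of its library's scaled total) after TMM scaling, on a deposited scale that is already per transcript length. The 13 neuroblast and neuron markers summed to 222 to 310 CPM with Oligonol and 358 to 438 CPM in controls, with TH, the rate-limiting enzyme of catecholamine synthesis, near 0 in all 6 libraries. That sum was carried by abundant genes such as TUBB3 and PHOX2A, and its members did not share a direction. The neuronal STMN2 was higher with Oligonol (20.9 to 24.6 CPM with Oligonol, 13.4 to 19.02 CPM in controls). So was ELAVL4 (14.0 to 17.9 and 7.32 to 9.79 CPM). TUBB3 was lower (41.8 to 74.8 CPM with Oligonol, 99.2 to 130.6 CPM in controls). CHGA was lower too (17.2 to 28.95 and 34.2 to 45.2 CPM), and GAP43 overlapped between the groups (2.33 to 2.73 and 2.41 to 3.23 CPM). Markers of adipocytes (5 genes) and hepatocytes (4 genes), cell types that specialise in this pathway, summed to 0.146 to 0.237 and 0.148 to 0.264 CPM with Oligonol, against 0.0485 to 0.312 and 0.0339 to 0.104 CPM in controls, and ALB was at 0 in all 6. Astrocyte markers (4 genes, among them GFAP) summed to 1.05 to 1.43 CPM with Oligonol and 0.630 to 1.19 CPM in controls, and myeloid markers (4 genes) to 0.421 to 0.809 and 0.421 to 1.27 CPM.

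Enough counts for testing were found for 48 of the 52 genes. By edgeR's quasi-likelihood test over all 16574 tested genes, at a Benjamini-Hochberg adjusted p under 0.05, 9 of the 48 rose with Oligonol and 19 fell, while 20 did not pass. The background rates were 26.0% of all tested genes higher and 23.0% lower, and 27.1% and 27.5% of tested protein-coding genes. The median log2 fold change was -0.21 over the 48 genes, 0.15 over all tested genes and 0.03 over tested protein-coding genes. Every gene that fell had a transcript GC content (the median over its transcripts) of 53.6 to 65.9%, and every gene that rose had one of 40.6 to 49.0%. These directions are relative to TMM scaling. Under scaling by library totals alone the median of all tested genes moved to 1.53, and the calls were then 32 higher and 0 lower. FASN (-0.10), FADS3 (-0.01) and ACADS (-0.06) were still below 0. At an unadjusted p under 0.05 by edgeR, 32 of the 48 and 11868 of the 16574 tested genes passed there, both directions together. The count of 32 thus went with the shift of all tested genes and is not read as particular to the 48. In the other fit used throughout, the trend of each library with GC content was removed, which takes out every difference that follows GC content whatever its source. In that fit 0 of the 48 genes were higher and 1 was lower, against 2.89% and 2.56% of all tested genes. At an unadjusted p under 0.05 by the same edgeR test there were 3 higher and 10 lower. Over the whole fit 4447 of 16200 genes, both directions together, were under that value. With GC content taken from the longest coding transcript instead, a fit chosen after seeing the data, 1 was higher (AGPAT5, 0.61, adjusted p = 0.0236) and 3 were lower (ELOVL1, FADS1 and ETFB), against 8.52% and 9.97% of all genes in that fit.

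**Figure D1:**
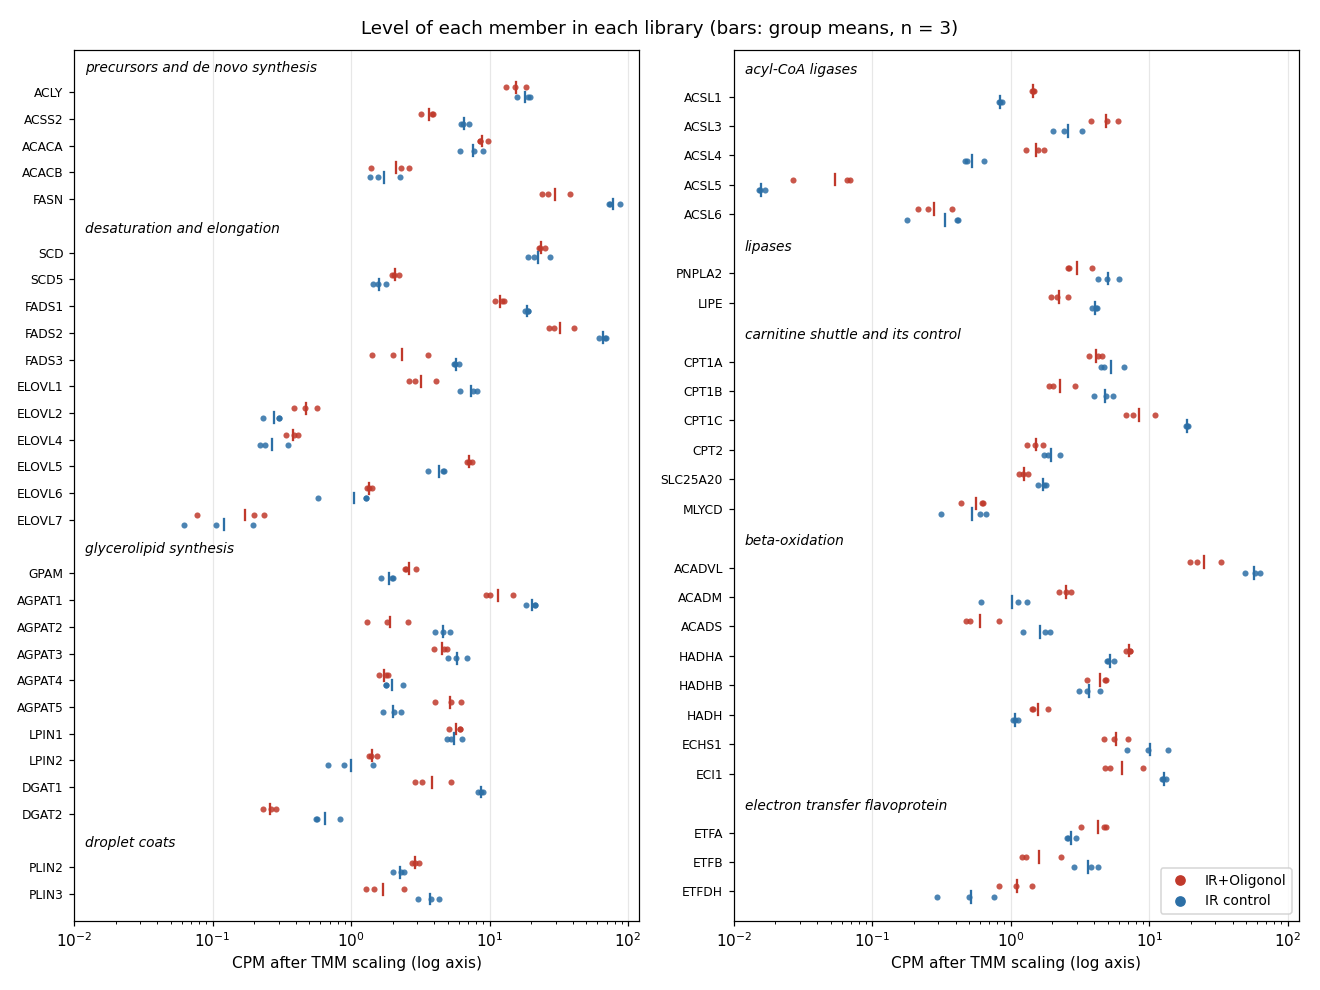
Level of all 52 genes in each library, as CPM after TMM scaling on a log axis, grouped by role, with 3 points and a bar at the mean for IR+Oligonol (red) and IR control (blue). FASN, FADS2 and ACADVL had the highest control levels and lay lower in every Oligonol library under TMM scaling, SCD overlapped between the groups, and ACSL5 and ELOVL7 were near the bottom of the scale.

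The enzymes that supply and run de novo synthesis differed among themselves: of 5 genes, FASN and ACSS2 fell under TMM scaling and 3 did not pass. FASN (chr17:82078338-82098294, GRCh38.p13), the fatty acid synthase that builds palmitate, measured 23.9, 38.2 and 26.3 CPM with Oligonol, against 87.9, 74.3 and 72.8 CPM in controls. All 3 Oligonol libraries lay below every control, and library 2 was the nearest to them. The log2 fold change was -1.41 (SE 0.27, adjusted p = 0.00869 by edgeR), and -0.42 (SE 0.16, adjusted p = 0.138) with the GC trend removed. ACSS2, which makes cytosolic acetyl-CoA from acetate, had 3.83, 3.93 and 3.19 CPM with Oligonol and 6.18, 7.05 and 6.38 CPM in controls. Its log2 fold change of -0.84 (SE 0.17, adjusted p = 0.00947) became -0.54 (SE 0.13, adjusted p = 0.0638) without the GC trend and 0.54 by library totals alone. ACLY, which makes acetyl-CoA from citrate, averaged 15.6 ± 2.54 CPM with Oligonol and 18.1 ± 1.94 CPM in controls (SD, n = 3 each), with overlapping groups (log2 fold change -0.22, SE 0.21). ACACA, the main acetyl-CoA carboxylase of synthesis, averaged 8.89 ± 0.685 and 7.59 ± 1.43 CPM (0.23, SE 0.20). ACACB, the carboxylase at the mitochondrial surface whose malonyl-CoA restrains CPT1, averaged 2.105 ± 0.642 and 1.72 ± 0.461 CPM (0.29, SE 0.30). ACACB overlaps UNG on the same strand. Neither carboxylase, which commits acetyl-CoA to the pathway, passed the test, while the synthase after them was lower under TMM scaling.

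Among the desaturases and elongases, 10 of 11 genes were tested, of which ELOVL5 rose and FADS1, FADS2, FADS3 and ELOVL1 fell under TMM scaling. ELOVL1 (chr1:43363398-43368074), which elongates saturated and monounsaturated chains to very long ones, was the 1 gene of all 48 called with the GC trend removed. It measured 2.63, 4.13 and 2.88 CPM with Oligonol, against 6.15, 8.14 and 7.61 CPM in controls, with no overlap. Its log2 fold change was -1.19 (SE 0.23, adjusted p = 0.00854), and -0.72 (SE 0.15, adjusted p = 0.0460) without the GC trend. In the fits without the GC trend that left out 1 library each, the adjusted p ranged from 0.0372 (without control 1) to 0.169 (without Oligonol 3), and all but the first missed the threshold. By library totals alone the value was 0.16. ELOVL5, an elongase of polyunsaturated chains, went the other way, with 7.14, 7.43 and 6.89 CPM with Oligonol and 3.61, 4.68 and 4.58 CPM in controls. Its log2 fold change was 0.74 (SE 0.17, adjusted p = 0.0127), and 0.30 (SE 0.14, adjusted p = 0.233) without the GC trend.

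FADS1 and FADS2, the desaturases of polyunsaturated fatty acid synthesis, lie next to each other on chromosome 11 and overlap on opposite strands, and FADS3, a relative with less settled substrates, lies beside them. FADS2 also overlaps FEN1 on the same strand, which leaves its counts less sure. FADS2 had 27.1, 40.5 and 29.1 CPM with Oligonol, against 61.3, 69.6 and 67.8 CPM in controls (log2 fold change -1.04, SE 0.25, adjusted p = 0.0137). FADS1 had 12.2, 12.7 and 11.0 CPM with Oligonol, against 18.1, 18.8 and 18.9 CPM in controls (-0.64, SE 0.18, adjusted p = 0.0226). Neither group pair overlapped, and the library kit was stranded, though the sources used here do not say whether the authors' quantification used the strand. FADS3 had 1.42, 3.60 and 1.99 CPM with Oligonol and 5.53, 5.64 and 6.01 CPM in controls (-1.31, SE 0.32, adjusted p = 0.0143). Without the GC trend the values were -0.45 for FADS2 (adjusted p = 0.0982), -0.08 for FADS1 (adjusted p = 0.698) and -0.47 for FADS3 (adjusted p = 0.183). The values of FADS1 and FADS2 depended on the transcript that stood for the gene: with the trend taken from longest transcripts, FADS1 was at -0.65 (adjusted p = 0.00787) and FADS2 at -0.17 (adjusted p = 0.508). FADS1 and FADS2 were above 0 by library totals alone, at 0.74 and 0.30.

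SCD, the desaturase that makes oleate and an abundant gene of this group, measured 23.2, 25.01 and 22.8 CPM with Oligonol and 18.9, 20.9 and 27.1 CPM in controls. The groups overlapped (log2 fold change 0.09, SE 0.22, adjusted p = 0.765). ELOVL6, which lengthens palmitate to stearate, averaged 1.35 ± 0.0514 CPM with Oligonol and 1.05 ± 0.406 CPM in controls (0.36, SE 0.32). ELOVL2 and ELOVL4, elongases of very long polyunsaturated chains, stayed under 0.6 CPM in every library, with log2 fold changes of 0.73 (SE 0.32) and 0.56 (SE 0.33) that did not pass. SCD5, another stearoyl-CoA desaturase known from brain, had 0.39 (SE 0.19). ELOVL7 was too low to test, at 0.171 ± 0.083 CPM with Oligonol and 0.121 ± 0.0686 CPM in controls.

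All 3 tested long-chain acyl-CoA ligases rose under each scaling tried, though none did so past the threshold with the GC trend removed. ACSL4 (chrX:109624244-109733403), which prefers arachidonate and other polyunsaturated fatty acids, had 1.73, 1.29 and 1.56 CPM with Oligonol, against 0.483, 0.463 and 0.640 CPM in controls. The lowest Oligonol library was above the highest control, and the log2 fold change was 1.53 (SE 0.27, adjusted p = 0.00773), the largest rise of the 48 genes. ACSL4 overlaps KCNE5 on the same strand, which leaves its counts less sure. ACSL3, a ligase of the endoplasmic reticulum and of nascent lipid droplets, had 5.94, 3.81 and 4.97 CPM with Oligonol and 2.02, 3.27 and 2.44 CPM in controls (0.92, SE 0.25, adjusted p = 0.0186). ACSL1, a ligase that serves oxidation or triglyceride synthesis depending on the tissue, had 1.44, 1.43 and 1.46 CPM with Oligonol and 0.867, 0.821 and 0.835 CPM in controls (0.77, SE 0.21, adjusted p = 0.0199). Without the GC trend the log2 fold changes were 0.66 for ACSL4 (adjusted p = 0.139), -0.03 for ACSL3 and 0.30 for ACSL1. ACSL6, the ligase known from neurons, and ACSL5 were too low to test. ACSL6 averaged 0.280 ± 0.084 CPM with Oligonol and 0.333 ± 0.135 CPM in controls, and ACSL5 0.0536 ± 0.0233 and 0.0158 ± 0.000865 CPM.

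Glycerolipid synthesis included genes of 1 family that moved in opposite directions. The AGPAT acyltransferases, which turn lysophosphatidic acid into phosphatidic acid or act on related lysophospholipids, had 1 gene higher, 2 lower and 2 not passing under TMM scaling. AGPAT5 (chr8:6708642-6761503), a mitochondrial member, measured 6.17, 4.02 and 5.28 CPM with Oligonol, against 2.05, 2.28 and 1.70 CPM in controls (log2 fold change 1.37, SE 0.22, adjusted p = 0.00718). AGPAT2, whose loss causes congenital lipodystrophy, measured 1.31, 2.58 and 1.81 CPM with Oligonol, against 4.07, 4.63 and 5.14 CPM in controls (-1.29, SE 0.26, adjusted p = 0.00947). AGPAT1, the more abundant enzyme of the endoplasmic reticulum, had 9.44, 14.8 and 10.0 CPM with Oligonol and 18.3, 21.4 and 21.2 CPM in controls (-0.83, SE 0.24, adjusted p = 0.0222). None of these groups overlapped. With the GC trend removed they were at 0.49 for AGPAT5 (adjusted p = 0.0685), -0.30 for AGPAT2 and -0.29 for AGPAT1, and by library totals alone AGPAT1 and AGPAT2 were at 0.51 and 0.05. AGPAT3 and AGPAT4 did not pass (-0.37, SE 0.19, and -0.20, SE 0.20), and had 0.38 and -0.59 without the GC trend, with adjusted p = 0.154 and 0.0758.

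At the ends of the glycerolipid route, GPAM, the mitochondrial acyltransferase of its opening step, had a log2 fold change of 0.47 (SE 0.19, adjusted p = 0.0644). LPIN1 and LPIN2, phosphatidate phosphatases, had 0.06 (SE 0.18) and 0.47 (SE 0.29), and did not pass. DGAT1, which adds the last acyl chain of triglyceride, had 3.26, 5.28 and 2.89 CPM with Oligonol and 8.30, 8.71 and 9.04 CPM in controls (-1.20, SE 0.25, adjusted p = 0.00993). Its value was -0.28 without the GC trend and 0.13 by library totals alone. DGAT2, the other enzyme of that step, was too low to test, at 0.260 ± 0.0275 CPM with Oligonol and 0.650 ± 0.156 CPM in controls, without overlap.

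Of the lipid droplet coat genes, PLIN3 fell under TMM scaling and PLIN2 did not pass. PLIN3, a coat protein that moves from the cytosol onto new droplets, had 1.45, 2.40 and 1.29 CPM with Oligonol and 3.06, 3.80 and 4.32 CPM in controls (log2 fold change -1.13, SE 0.27, adjusted p = 0.0141; 0.22 by library totals alone). PLIN2, a protein stable only on droplets, had 2.90, 2.76 and 3.08 CPM with Oligonol and 2.02, 2.42 and 2.30 CPM in controls. The PLIN2 groups did not overlap, yet the difference missed the threshold (0.39, SE 0.17, adjusted p = 0.0884). PLIN3 stood at -0.33 (adjusted p = 0.275) and PLIN2 at 0.07 once the GC trend was removed.

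Both lipases fell under TMM scaling. LIPE, hormone-sensitive lipase, had 2.16, 2.58 and 1.96 CPM with Oligonol, against 3.85, 4.21 and 4.14 CPM in controls (log2 fold change -0.87, SE 0.18, adjusted p = 0.00950). PNPLA2, adipose triglyceride lipase, had 2.59, 3.86 and 2.62 CPM with Oligonol and 5.99, 4.27 and 4.95 CPM in controls (-0.76, SE 0.23, adjusted p = 0.0261). Neither pair of groups overlapped, but the sign depended on the fit. LIPE stood at 0.11 and PNPLA2 at 0.23 without the GC trend, and at 0.50 and 0.57 by library totals alone.

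In the carnitine shuttle, 2 of 6 genes fell, 0 rose and 4 did not pass under TMM scaling. CPT1C (chr19:49690898-49713731), the neuronal isoform of carnitine palmitoyltransferase 1, is known to sit in the endoplasmic reticulum with little transferase activity. It was the most abundant of the 3 isoforms, with 7.60, 11.0 and 6.74 CPM with Oligonol, against 18.6, 19.1 and 18.8 CPM in controls (log2 fold change -1.16, SE 0.23, adjusted p = 0.00938). CPT1A, the isoform that carries most entry into mitochondria outside muscle, had 3.66, 4.26 and 4.54 CPM with Oligonol and 6.59, 4.45 and 4.74 CPM in controls, with overlap (-0.35, SE 0.21, adjusted p = 0.191). CPT1B, the muscle isoform, had 1.89, 2.92 and 2.02 CPM with Oligonol and 4.84, 4.002 and 5.45 CPM in controls (-1.07, SE 0.22, adjusted p = 0.0102). CPT1B overlaps the readthrough gene CHKB-CPT1B on the same strand, so its reads may be divided between them. CPT2 and SLC25A20, the inner-membrane transferase and the carnitine-acylcarnitine carrier, had -0.38 (SE 0.21) and -0.46 (SE 0.19) and did not pass. MLYCD, which breaks down malonyl-CoA and overlaps OSGIN1 on the same strand, had 0.14 (SE 0.36). Without the GC trend CPT1C, CPT1B and CPT1A stood at -0.34, -0.40 and 0.01, none of them called, and by library totals alone CPT1C and CPT1B were at 0.18 and 0.28.

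The 3 acyl-CoA dehydrogenases among the 52 genes, enzymes that open each round of beta-oxidation, did not move together under TMM scaling. The very long-chain and short-chain enzymes fell and the medium-chain enzyme rose, so the direction did not follow chain length in order. ACADVL had 22.3, 33.1 and 19.7 CPM with Oligonol, against 48.7, 58.4 and 62.6 CPM in controls (log2 fold change -1.18, SE 0.27, adjusted p = 0.0127). ACADM had 2.74, 2.24 and 2.51 CPM with Oligonol, against 1.30, 1.13 and 0.614 CPM in controls (1.30, SE 0.29, adjusted p = 0.0116). ACADS (chr12:120725774-120740008) had 0.504, 0.826 and 0.479 CPM with Oligonol, against 1.22, 1.90 and 1.76 CPM in controls (-1.41, SE 0.31, adjusted p = 0.0112). None of the groups overlapped, and the 3 genes stood at -0.44, 0.34 and -0.43 without the GC trend, with adjusted p of 0.134, 0.386 and 0.260. By library totals alone ACADVL was at 0.17. ACADM shares bases with RABGGTB on the same strand, which leaves its counts less sure.

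The electron transfer flavoprotein takes electrons from these dehydrogenases as a dimer of ETFA and ETFB, and ETFDH hands them on to ubiquinone. Its subunits moved in opposite directions under TMM scaling. ETFA had 4.84, 3.22 and 4.70 CPM with Oligonol, against 2.56, 2.97 and 2.58 CPM in controls (log2 fold change 0.66, SE 0.21, adjusted p = 0.0325). ETFB had 1.21, 2.31 and 1.30 CPM with Oligonol, against 2.84, 3.81 and 4.27 CPM in controls (-1.20, SE 0.29, adjusted p = 0.0139). ETFDH had 1.09, 0.826 and 1.42 CPM with Oligonol, against 0.502, 0.761 and 0.293 CPM in controls (1.11, SE 0.39, adjusted p = 0.0464). On the same strand ETFA overlaps Metazoa_SRP and TYRO3P, and ETFDH overlaps U3, which leaves their counts less sure. With the GC trend removed ETFA stood at -0.01, ETFB at -0.40 (adjusted p = 0.224) and ETFDH at 0.51 (adjusted p = 0.397), and by library totals alone ETFB was at 0.14. With the trend taken from longest transcripts, where ETFB counts as 48.7% GC in place of 59.7%, ETFB was at -1.39 (adjusted p = 0.00437) and ETFA at 0.02.

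The coding sequences of ETFA and ETFB, a pair chosen after its values were seen, differ in GC content. Coding GC content was used in no fit, and its part in their directions was not tested. Coding bases 301 to 420 from the GENCODE release 29 transcripts (GRCh38) are printed 5′ to 3′ with G and C in capitals, for the flavoprotein subunit that rose and the one that fell under TMM scaling. Each stretch is spliced from 2 exons, so the genomic range given includes an intron. The ETFA stretch (chr15:76287877-76292481, minus strand) holds 46.7% G and C and the ETFB stretch (chr19:51350347-51353206, minus strand) 60.8%. Over the whole coding sequence the shares were 45.2% in ETFA and 61.3% in ETFB.
ETFA: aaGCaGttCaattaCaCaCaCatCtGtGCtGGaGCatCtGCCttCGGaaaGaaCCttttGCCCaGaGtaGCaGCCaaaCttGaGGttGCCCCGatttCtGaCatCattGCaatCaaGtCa
ETFB: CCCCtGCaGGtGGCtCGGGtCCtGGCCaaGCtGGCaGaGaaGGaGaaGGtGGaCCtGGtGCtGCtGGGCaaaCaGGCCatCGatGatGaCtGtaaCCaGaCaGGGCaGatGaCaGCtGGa

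Later steps of the spiral included genes in each direction under TMM scaling. HADHA and HADHB, the subunits of the mitochondrial trifunctional protein that handles long chains, are divergent neighbours on opposite strands of chromosome 2. HADHA had 7.26, 6.77 and 7.30 CPM with Oligonol, against 5.03, 5.57 and 4.98 CPM in controls (log2 fold change 0.46, SE 0.16, adjusted p = 0.0428). HADHB had 4.82, 3.58 and 4.84 CPM with Oligonol and 3.10, 4.38 and 3.53 CPM in controls, with overlap (0.27, SE 0.21, adjusted p = 0.304). Removal of the GC trend left them at 0.20 and -0.41, with adjusted p of 0.262 and 0.124. HADH, the dehydrogenase for shorter chains, had 0.55 (SE 0.22, adjusted p = 0.0679). ECI1, the isomerase needed for unsaturated chains, had 4.76, 9.04 and 5.17 CPM with Oligonol, against 12.3, 12.6 and 13.1 CPM in controls (-1.01, SE 0.27, adjusted p = 0.0182). ECHS1, the short-chain hydratase, had 4.67, 7.04 and 5.55 CPM with Oligonol and 6.86, 9.80 and 13.6 CPM in controls. Its groups overlapped although it passed the test (-0.81, SE 0.28, adjusted p = 0.0432). ECI1 and ECHS1 stood at -0.04 and 0.05 without the GC trend, and at 0.31 and 0.58 by library totals alone.

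The stretch upstream of both HADHA and HADHB is shown because, by their RefSeq starts at 26244632 and 26244939, the pair shares it: it lies within 250 bases before each start, at chr2:26244689-26244882 on the plus strand (RefSeq, GRCh38.p14), 68.6% G and C. By the deposited coordinates HADHB starts at 26243170 and HADHA reaches 26244672, so there the genes overlap and the stretch lies inside HADHB. Capitals mark 1 GC box (GGGCGG on either strand, here on the minus strand). Neither CCAAT nor CACGTG, searched on both strands, is in this window.
HADHA and HADHB shared upstream stretch: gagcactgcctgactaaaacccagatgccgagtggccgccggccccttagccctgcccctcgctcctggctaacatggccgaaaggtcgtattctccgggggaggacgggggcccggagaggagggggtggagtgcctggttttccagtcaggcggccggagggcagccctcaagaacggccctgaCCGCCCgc
RefSeq promoter windows were found for 46 of the 52 genes, and their 250 bases upstream of the start were searched. A gene was counted if any of its windows held the motif. The GC box was in 41 of the 46 genes, and in 42.6% of 35116 single windows of all genes. The first count is per gene and the second per window, so they are not on the same footing and no enrichment is read from them. The box was in 6 of 7 genes that rose, 16 of 16 that fell and 17 of 20 that did not pass. CCAAT was in 22 of the 46 genes (32.01% of all single windows) and CACGTG in 4 (6.34% of all single windows), with the same limit.

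**Figure D2:**
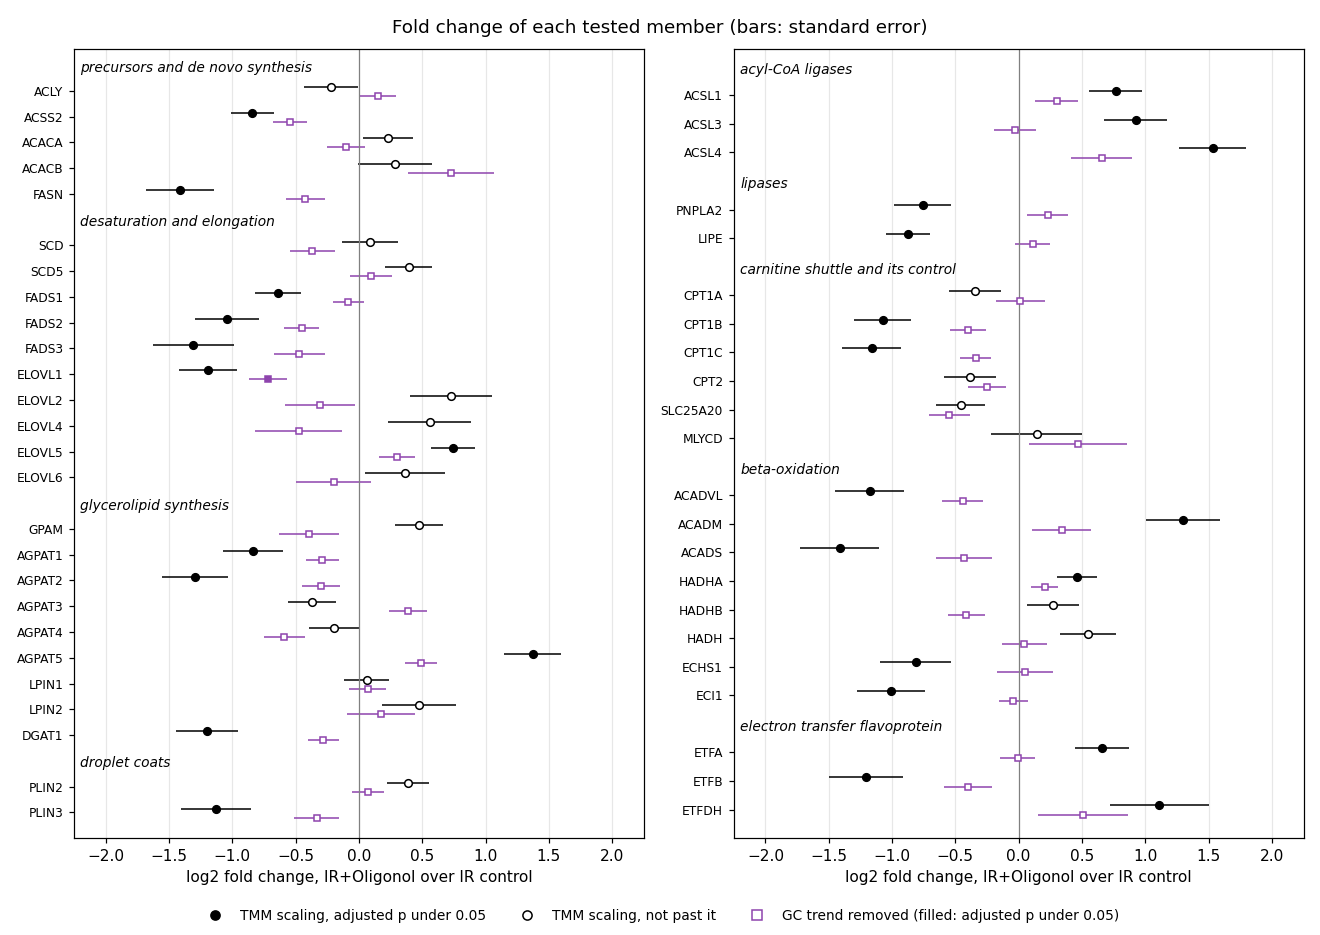
Log2 fold change of the 48 tested genes, IR+Oligonol over IR control, with SE bars, under TMM scaling (circles, filled where the adjusted p is under 0.05) and with the GC trend of each library removed (squares). Under TMM scaling 9 genes are filled to the right and 19 to the left of 0. If scaled to library totals 32 were higher and 0 lower, with the median of all tested genes at 1.53. With the GC trend removed the 1 filled square is ELOVL1.

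Set against each other, synthesis and storage had 2 of 26 tested genes higher, 10 lower and 14 not passing, and oxidation had 4 of 17 higher, 7 lower and 6 not passing, against the background rates of 26.0% and 23.0%. The median log2 fold change was -0.07 for synthesis and storage and -0.38 for oxidation. The SD of the list median between libraries was 0.0546 and 0.0739. That SD is a spread between libraries and not a standard error of the median fold changes, which were not tested. With the GC trend removed the order of the medians turned round, to -0.28 for synthesis and storage and -0.04 for oxidation, against 0.03 for all tested genes. By library totals alone they were 1.32 and 0.99. The 5 tested genes of activation and release had 3 higher and 2 lower, with a median of 0.77.

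Summed over genes, synthesis and storage held 188 ± 25.3 CPM with Oligonol and 299 ± 6.03 CPM in controls, and oxidation held 78.4 ± 11.7 and 132 ± 11.1 CPM (SD, n = 3 each). Synthesis and storage over oxidation was 2.41, 2.36 and 2.43 with Oligonol and 2.46, 2.20 and 2.16 in controls, so the groups overlapped. FASN alone held 15.5% ± 1.93 of the synthesis and storage sum with Oligonol and 26.3% ± 3.13 in controls. Without FASN, a choice made after its values were seen, the ratio was 2.07, 1.95 and 2.06 with Oligonol against 1.73, 1.65 and 1.64 in controls, higher in all 3 Oligonol libraries. That removal was from the synthesis and storage side only. ACADVL, the most abundant oxidation gene, also fell under TMM scaling (log2 fold change -1.18) and stayed in the oxidation sum. A ratio without both genes was not computed, so no shift between the classes is read from the ratio without FASN. As a share of protein-coding counts, which does not use TMM, synthesis and storage held 0.264% ± 0.00772 with Oligonol and 0.282% ± 0.0318 in controls, with overlap. Oxidation held 0.110% ± 0.00437 and 0.124% ± 0.00484 without overlap, while the genes of activation and release held 0.0191% ± 0.00304 and 0.0127% ± 0.00178, likewise without overlap.

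**Figure D3:**
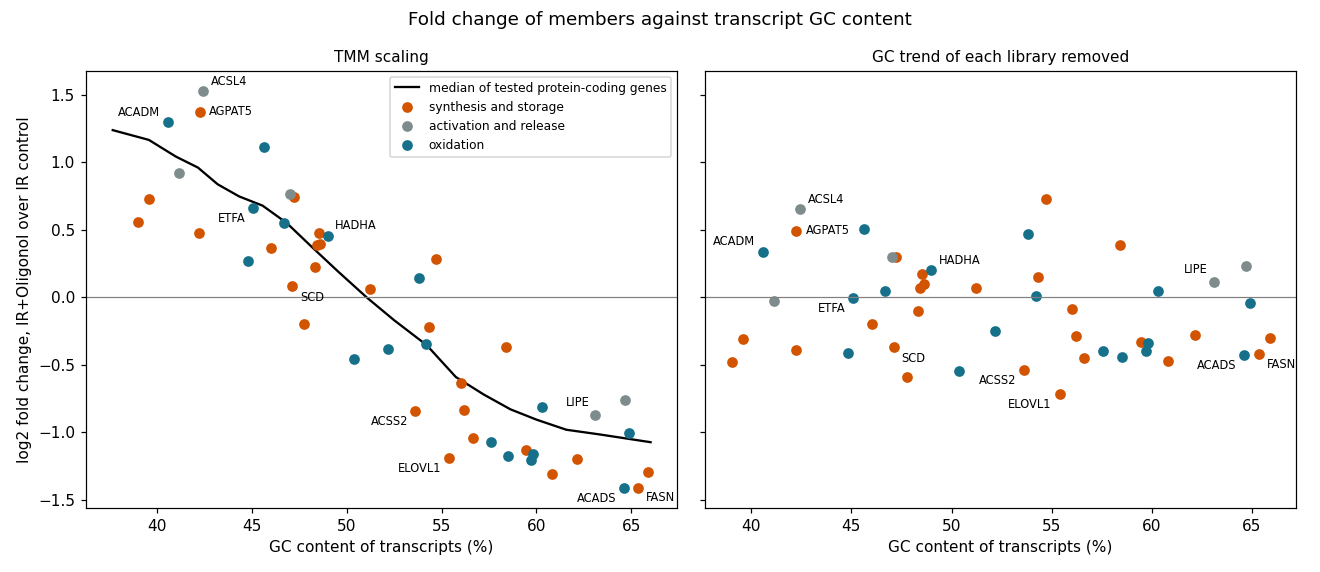
Log2 fold change of the 48 tested genes, IR+Oligonol over IR control, against transcript GC content, under TMM scaling (left, with the median of tested protein-coding genes as a line) and with the GC trend removed (right). On the left all classes follow the line. The genes that rose lie at 40.6 to 49.0% GC and those that fell at 53.6 to 65.9%. If scaled to library totals 32 were higher and 0 lower, with the median of all tested genes at 1.53. On the right the points lie on both sides of 0. Their medians were -0.17 under 45% GC, 0.07 at 45 to 50% and 0.04 at 50 to 55%. At 55 to 60% the median was -0.37, and at 60% or more it was -0.28.

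Across the 48 genes, which share the 6 libraries and are not independent replicates, log2 fold change fell with transcript GC content (Spearman's rho -0.899). For 11719 protein-coding genes rho was -0.851, and over the 48 genes with the GC trend removed it was -0.207. Of 8 genes under 45% GC, 4 rose and 0 fell, where 65.7% of protein-coding genes in that range rose and 0.311% fell. Of 13 genes at 45 to 50%, 5 rose and 0 fell, where 33.0% and 2.23% did. The 8 genes at 50 to 55% included 0 that rose and 1 that fell (ACSS2), where 5.27% and 15.2% did. Of 10 genes at 55 to 60%, 9 fell, and of 9 genes at 60% or more, 9 fell, where 59.5% and 80.6% of protein-coding genes did. GC content and treatment moved together in these groups, and their parts in each difference cannot be told apart.

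Oligonol library 2, whose protein-coding counts had the highest GC content of its group, was the Oligonol library nearest the controls in all 19 genes that fell and in 8 of the 9 that rose, the exception being ELOVL5. Without that library the same 28 genes were called. Without Oligonol 1 the calls were 4 higher and 10 lower, and without Oligonol 3 they were 4 and 9. Leaving out control 1 gave 5 and 18, control 2 gave 6 and 16, and control 3 gave 4 and 15. Calls made in all 6 fits that left out a library numbered 4 of the 9 rises (ACSL4, AGPAT5, ELOVL5 and ACADM) and 9 of the 19 falls (ACSS2, FASN, ELOVL1, AGPAT2, DGAT1, LIPE, CPT1B, CPT1C and ACADS).

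Ratios of partner genes within a library do not depend on how libraries are scaled, but they keep any difference that follows GC content. The pairs were chosen after their values were seen, and are given as a description with no test. The ratio of ETFA to ETFB was 4.01, 1.39 and 3.63 with Oligonol, against 0.902, 0.779 and 0.604 in controls, so it was above 1 in every Oligonol library and below 1 in every control. ACADM to ACADS was 5.44, 2.71 and 5.25 with Oligonol, against 1.07, 0.595 and 0.348 in controls. FASN to SCD was 1.03, 1.53 and 1.154 with Oligonol, against 4.66, 3.56 and 2.68 in controls. In contrast, HADHA to HADHB was 1.51, 1.89 and 1.51 with Oligonol and 1.63, 1.27 and 1.41 in controls, with overlap. Elongases parted as well, with ELOVL1 to ELOVL5 at 0.368, 0.556 and 0.419 with Oligonol and 1.71, 1.74 and 1.66 in controls. The droplet coat ratio of PLIN3 to PLIN2 was 0.501, 0.869 and 0.417 with Oligonol and 1.51, 1.57 and 1.88 in controls. Transcript GC content was 45.1% in ETFA and 59.7% in ETFB, 40.6% in ACADM and 64.6% in ACADS, and 49.0% in HADHA and 44.8% in HADHB. It was 65.3% in FASN and 47.1% in SCD, 55.4% in ELOVL1 and 47.2% in ELOVL5, and 59.4% in PLIN3 and 48.4% in PLIN2. FADS2 and FADS1 had 56.6% and 56.0% as medians over transcripts but 60.7% and 50.1% in the longest transcript, and their ratio was 2.21, 3.19 and 2.65 with Oligonol against 3.39, 3.70 and 3.58 in controls, without overlap.

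**Figure D4:**
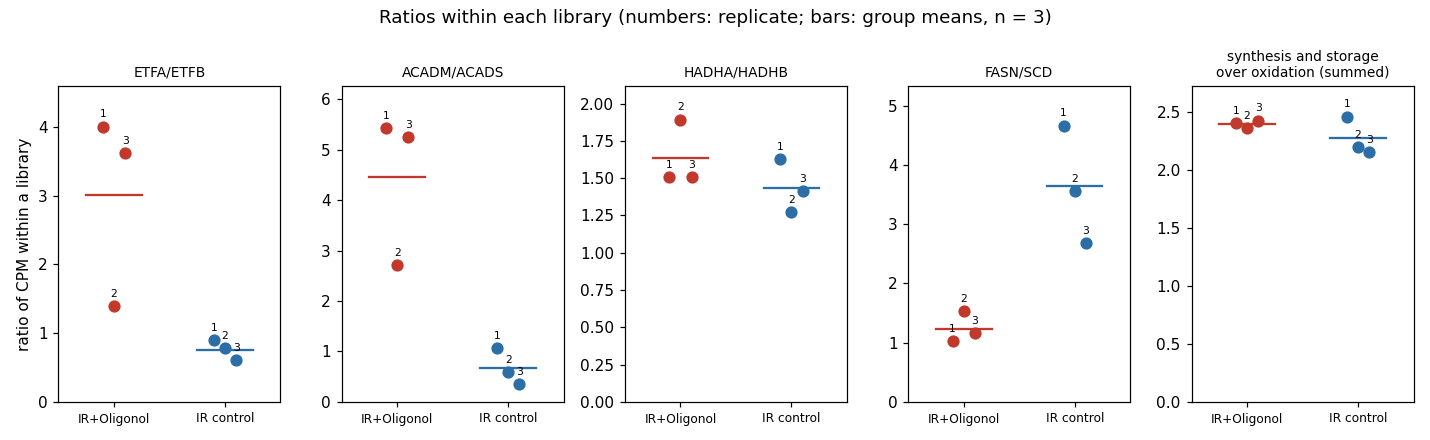
Ratio of CPM within each library for 4 gene pairs and for the sums of synthesis and storage over oxidation, with each library numbered and a bar at the group mean (IR+Oligonol left in red, IR control right in blue, n = 3 each). ETFA/ETFB and ACADM/ACADS were higher and FASN/SCD lower in every Oligonol library than in every control, while HADHA/HADHB and the summed ratio overlapped.

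Other genes of the pathway were read from 4 further lists. Of 28 regulators 24 were tested, and 4 rose and 11 fell under TMM scaling. For this and the other 3 lists, the background rates are again 26.0% higher and 23.0% lower. Directions in these lists are again relative to TMM scaling. By library totals alone the median log2 fold change was 1.02 for regulators and 1.26 for other synthesis and storage. It was 0.87 for uptake and binding, 1.48 for other oxidation and 1.53 for all tested genes. PRKAA1, a catalytic subunit of AMP-activated protein kinase, which inhibits acetyl-CoA carboxylase, had 4.10, 2.46 and 3.45 CPM with Oligonol, against 1.32, 1.13 and 0.935 CPM in controls (log2 fold change 1.56, SE 0.26, adjusted p = 0.00722). PRKAA2, the other catalytic subunit, had 2.11 (SE 0.44), and INSIG2, which retains the SREBP precursors in the endoplasmic reticulum, 1.40 (SE 0.29). SCAP, which escorts those precursors to the Golgi, had 8.20, 10.2 and 9.15 CPM with Oligonol, against 17.3, 17.03 and 17.5 CPM in controls (-0.91, SE 0.18, adjusted p = 0.00955). None of these 4 passed with the GC trend removed, where they stood at 0.66, 0.92, 0.25 and -0.09 in that order.

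The SREBP genes and INSIG1 were chosen after their values were seen. SREBF1, whose product drives lipogenic genes such as FASN, had a log2 fold change of -0.75 (SE 0.25, adjusted p = 0.0384), and SREBF2, which favours cholesterol genes, had -0.70 (SE 0.21, adjusted p = 0.0260). Removal of the GC trend left them at 0.20 and -0.08. INSIG1, itself a target of SREBP, had 7.94, 8.49 and 6.76 CPM with Oligonol, against 12.3, 10.4 and 10.5 CPM in controls, with no overlap. At 46.4% GC it was lower both under TMM scaling (-0.52, SE 0.18, adjusted p = 0.0458) and with the GC trend removed (-1.05, adjusted p = 0.0294), the 1 regulator so called. Leaving out Oligonol 1, Oligonol 3, control 2 or control 3 from that fit ended the INSIG1 call (adjusted p 0.0686 to 0.112), while it held without Oligonol 2 or control 1. The value of INSIG1 by library totals alone is not given here, so a lower level under every scaling is not claimed.

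Of 40 other synthesis and storage genes 21 were tested, with 5 higher and 7 lower. HILPDA, a droplet protein that inhibits PNPLA2, had 2.23, 3.10 and 2.24 CPM with Oligonol, against 4.59, 4.23 and 4.83 CPM in controls (log2 fold change -0.86, SE 0.19, adjusted p = 0.01199). It was also lower with the GC trend removed (-0.95, adjusted p = 0.0335), the 1 gene of its list to be so. That HILPDA call was likewise lost without Oligonol 1, Oligonol 3, control 2 or control 3 (adjusted p 0.0897 to 0.133). For HILPDA, too, the value by library totals alone is not given here. HACD3, a dehydratase of elongation, and LCLAT1, an acyltransferase, had 0.81 (SE 0.17) and 0.97 (SE 0.22). SLC25A1, the citrate carrier that exports carbon for synthesis, had -1.19 (SE 0.27), and without the GC trend these 3 stood at 0.0017, 0.50 and -0.21.

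Of 15 genes of fatty acid uptake and binding 9 were tested, with 3 higher and 5 lower. The acyl-CoA-binding domain genes ACBD3 and ACBD5 had log2 fold changes of 1.08 (SE 0.23) and 0.95 (SE 0.26), and SLC27A4 and SLC27A5, of the fatty acid transport protein family, -1.02 (SE 0.25) and -0.99 (SE 0.25). Of 40 other oxidation genes 33 were tested, with 7 higher and 7 lower, a share each way near or under the background. CROT, the peroxisomal carnitine octanoyltransferase, had 1.72 (SE 0.26) and ABCD3, a peroxisomal acyl-CoA transporter, 1.22 (SE 0.23). DECR2, a peroxisomal reductase for unsaturated chains, had -1.32 (SE 0.25). None of the genes on either list passed with the GC trend removed, where CROT stood at 0.50, ABCD3 at 0.11 and DECR2 at -0.37.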

How the data were processed

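RNA was measured in 6 SH-SY5Y libraries, grouped by their labels into 3 IR+Oligonol and 3 IR control libraries. Per the labels' protocols, total RNA was extracted with TRIzol and made into libraries with a stranded total RNA kit, then sequenced as pairs of 100 nt reads. Per the submitters' processing notes, kallisto 0.46.1, FastQC, edgeR and GRCh38.p13 were involved, without saying what each was used for, and the sources used here do not say how gene values were made from transcript estimates. The authors deposited 2 columns a library, 1 of estimated counts and 1 of scaled signal. The deposited signal equalled the estimated counts multiplied by a single factor per library, and was not used for tests. Per-length scaling was read from the deposited estimated counts: for low genes, values times effective length came within 0.05 of whole reads in 66.9 to 70.5% of cases, with 1 read of a kilobase transcript worth 0.352 to 0.458 estimated counts with Oligonol and 0.261 to 0.268 in controls. On that scale and with the longest transcript's length, the tested genes rested on at least 41.4 reads in every library, and with the median transcript length on at least 12.6.

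Estimated counts were rounded to whole numbers, filtered with filterByExpr, and scaled by TMM. The test was edgeR's quasi-likelihood test (edgeR 4.0.16 in R 4.3.3), robust, 2-sided and with group alone in the model. P-values were adjusted over all tested genes by Benjamini-Hochberg, with a threshold of 0.05. The main fit alone was also run on simulated counts. These carried no GC trend, so that run cannot speak for the fit with the GC trend removed or for data with such a trend. GENCODE release 29, matched to 58254 of the gene identifiers and all 52 genes, gave transcript GC content and length as medians over a gene's transcripts. The authors may have used another release. The GC trend of each library was fitted as a natural spline (5 degrees of freedom) over the protein-coding genes and given to the model as an offset, for 16200 genes. Alternatives also included DESeq2 1.42.0, limma-voom (limma 3.58.1), other scalings and filters, and each library left out. A fit with GC content taken from the longest coding transcript was added after seeing the data.

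The genes, their roles and the other pathway lists were chosen with earlier results of these data known. Per-library values were given for the gene with the smallest p in each role, genes called with the GC trend removed and, beyond that rule, genes chosen after their values were seen to show partners. From each list of other pathway genes up to 4 with the smallest p were named, except 1 that is not reported here. The sources used here do not say whether replicates were separate cultures, so p-values cover only the spread between these libraries, possibly a technical one. Same-numbered samples did not deviate together (correlations 0.09, -0.01 and -0.15), so the numbers were not taken as pairs.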

Additional observations from a re-analysis of the deposited data

How the results depend on the processing

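The number of genes called over the whole table was 8112, and stayed within 1.5 times of it with scaling by RLE, the upper quartile or library totals, TMM factors from protein-coding genes, DESeq2, limma-voom, a minimum of 10 counts in every library, the replicate block and an adjusted p under 0.1. It was 883 with the GC trend removed, 4567 with no filter, 2161 with the GC trend of the longest transcript removed, 2180 at an adjusted p under 0.01 and 3439 to 8921 with each library left out. With the GC trend removed, leaving out each library gave 0 to 1307. With the replicate block and the GC trend removed together 0 genes were called by edgeR, while 3992 had an unadjusted p under 0.05. Of the fatty acid genes, 9 were called higher and 19 lower. With the GC trend removed 0 and 1 were, with library totals alone 32 and 0, with no filter 3 and 9, with the longest-transcript trend removed 1 (AGPAT5) and 3 (ELOVL1, FADS1 and ETFB), and at an adjusted p under 0.01 they numbered 2 and 7. With the replicate block 5 and 19 were called, and with the block and the GC trend removed 0 and 0 (3 and 9 at an unadjusted p under 0.05). Leaving out each library gave 4 to 9 higher and 9 to 19 lower. No paired reading is made of the block, since the numbers did not pair the samples.

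Synthesis and storage had 2 genes higher and 10 lower. The counts were 0 and 1 with the GC trend removed, 18 and 0 by library totals, 1 and 5 with no filter, 0 and 0 with the replicate block and GC trend removed, 1 and 2 with the longest-transcript trend removed, and 1 and 5 at an adjusted p under 0.01. The higher count was 4 with upper-quartile scaling and at an adjusted p under 0.1, and 6 with at least 10 counts in all libraries. Leaving out each library gave 2 higher throughout and 5 to 10 lower. Oxidation had 4 higher and 7 lower. The counts were 0 and 0 with the GC trend removed, with or without the replicate block, 11 and 0 by library totals, 1 and 3 with no filter, 0 and 1 with the longest-transcript trend removed, and 0 and 1 at an adjusted p under 0.01. The higher count was 2 with RLE scaling and with DESeq2, and 1 with the replicate block. Leaving out each library gave 1 to 4 higher and 3 to 7 lower.

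The median log2 fold change of synthesis and storage members, -0.07, became -0.28 with the GC trend removed, -0.29 with the block as well, -0.24 with the longest-transcript trend removed, -0.14 with RLE scaling and with DESeq2, 0.024 with upper-quartile scaling, 0.043 with at least 10 counts in all libraries and 1.32 by library totals. It ranged from -0.11 to -0.03 with each library left out. The median log2 fold change of oxidation members, -0.38, became -0.042 with the GC trend removed, -0.047 with the block as well, -0.13 with the longest-transcript trend removed, -0.29 with upper-quartile scaling, -0.46 with DESeq2, -0.21 with at least 10 counts in all libraries and 0.99 by library totals. It ranged from -0.47 to -0.29 with each library left out.

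Called genes that changed sign did so under library totals or with a GC trend removed. By library totals the log2 fold changes were 0.54 for ACSS2, 0.74 for FADS1, 0.30 for FADS2, 0.16 for ELOVL1, 0.51 for AGPAT1, 0.048 for AGPAT2, 0.13 for DGAT1, 0.22 for PLIN3, 0.57 for PNPLA2, 0.50 for LIPE, 0.28 for CPT1B, 0.18 for CPT1C, 0.17 for ACADVL, 0.58 for ECHS1, 0.31 for ECI1 and 0.14 for ETFB. With the GC trend removed they were -0.027 for ACSL3, 0.23 for PNPLA2, 0.11 for LIPE, 0.048 for ECHS1 and -0.0069 for ETFA. With the replicate block as well they were -0.020 for ACSL3, 0.25 for PNPLA2, 0.10 for LIPE, 0.088 for ECHS1 and -0.015 for ETFA. With the longest-transcript trend removed they were -0.055 for ELOVL5, -0.087 for ACSL3, 0.23 for PNPLA2, 0.031 for LIPE and 0.052 for ECHS1. The cause was not tested. With the replicate block and GC trend removed, INSIG1 (adjusted p = 0.0733) and HILPDA (adjusted p = 0.0862) were not called. The 4 untested genes were below the count filter, and 3 libraries a group limit what can be told of differences such as that of SCD.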
